A study of Mus musculus with 6 samples.

Results

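The bone morphogenetic protein (BMP) receptors and response genes described here were a list of 10 genes: the receptors Bmpr1a, Bmpr1b and Bmpr2, the decoy receptor Bambi, the Smad genes Smad6 and Smad9, and the 4 inhibitors of DNA binding Id1, Id2, Id3 and Id4. The list was set by name, and all 10 were found among the 55471 genes of the count table. RNA-seq was performed on primary mouse osteoblasts grown out of calvaria (the parietal bone of the skull) of 3-day-old pups after collagenase and dispase digestion. There were 3 libraries from wild type C57BL/6 controls (WT) and 3 from triple conditional knockouts (TCKO), which carried Prx1-Cre with Tet1 fl/fl, Tet2 fl/fl and Tet3 fl/fl. Prx1-Cre is active in limb and part of the skull mesenchyme, and the share of cultured cells in which it had acted was not given in the sources used here. TET proteins oxidise 5-methylcytosine in DNA and so take part in its removal. The number of animals behind each library was not given in the sources used here.

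BMP ligands bind a complex of type I and type II serine/threonine kinase receptors. The type II receptor phosphorylates the type I receptor, which phosphorylates Smad1, Smad5 and Smad9, and these enter the nucleus with Smad4 and switch on targets such as the Id genes and Smad6. In bone, BMP signalling is known for driving osteoblast differentiation, while Smad6 and Bambi are feedback inhibitors.

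The 6 libraries held between 8019999 and 10177214 counts, so that the floor of 3 counts was at most 0.374 CPM, the counts of a gene scaled to 1 fixed library size, with TMM factors. The targeted genes gave a mixed check of the labels: Tet1 was counted 98, 131 and 115 times in WT libraries and 68, 51 and 51 times in those of TCKO (log2 fold change -0.97 ± 0.16 SE, adjusted p = 0.00648, edgeR), Tet2 did not pass the test (-0.14 ± 0.14, adjusted p = 0.545, edgeR) and Tet3 was higher in TCKO (0.51 ± 0.09, adjusted p = 0.00745, edgeR). With replicates 1 and 2 summed, Tet1 (0.0797) and Tet3 (0.0878) were also short of the threshold in edgeR. These are counts over whole genes, which would include any transcripts that keep the exons outside the floxed part. Whether such transcripts were present was not tested. Directions below therefore rest on the labels, and "TCKO" stands for the libraries labelled so. Replicates 1 and 2 were closer to each other (biological coefficient of variation 3.00% in WT and 3.62% in TCKO) than either was to replicate 3 (16.4 to 18.4%), though above sampling noise, and they were kept as separate samples. TCKO replicate 3 was also the 1 library with abundant Xist (4583 counts, 1 to 4 in the others) and no Ddx3y (0 counts, 675 to 1094 in the others). Mitochondrial transcripts took 2.22 and 2.47% of the counts in WT and TCKO replicate 3 and 1.11 to 1.24% in the other 4 libraries. Runx2, the master transcription factor of osteoblasts, was present in every library at 555 to 962 counts, whereas Bglap, a marker of mature osteoblasts, had at most 2.

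Of the 10 genes, 2 were higher in TCKO, Bmpr1b and Bambi, and none was called lower by edgeR with adjustment over all 13826 genes tested. The same threshold called 9.07% of all tested genes higher and 8.63% lower. Only Bmpr1b also exceeded a 2-fold increase, against 3.16% of all tested genes. At an unadjusted p under 0.05 in edgeR there were 2 members lower, Id2 and Id3, and the share of all tested genes was not counted there. DESeq2 called 2 members lower after adjustment, also Id2 and Id3, and it called 1181 of the 13826 tested genes lower. With the replicate number as a block, the calls were 2 higher (12.0% of all tested genes were called higher) and 4 lower, namely Smad6, Smad9, Id2 and Id3 (11.5% of all tested genes were called lower). These 4 lower calls were lost, and both higher calls were kept, when the blocked design was fitted with replicates 1 and 2 of each genotype summed. The median log2 fold change of the 10 was -0.32, beside 0.00 over all tested genes.

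**Figure D1:**
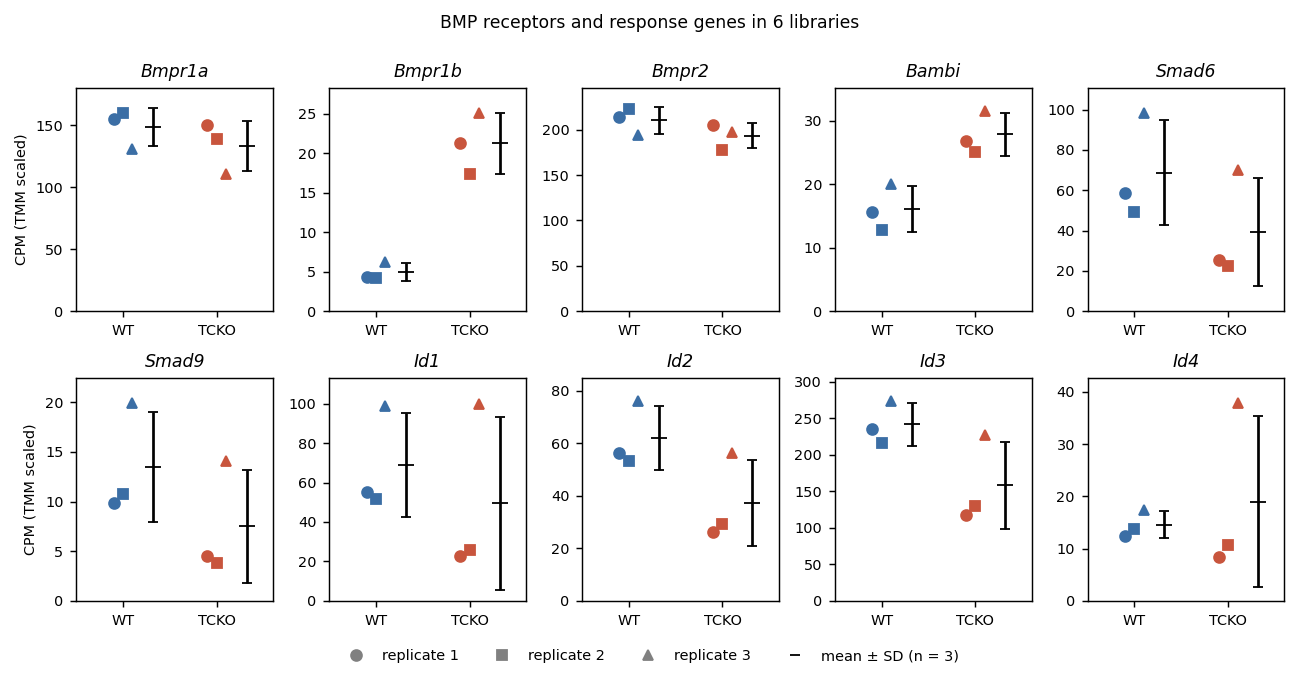
CPM (y axis, TMM scaled, from 0) of the 10 genes in WT (blue) and TCKO (red), where each symbol is 1 library, its shape gives the replicate number, and the bar is the mean ± SD of 3 libraries. The WT and TCKO libraries are apart for Bmpr1b and Bambi, and replicate 3 (triangles) is the highest of its genotype for Smad6, Smad9 and the 4 Id genes.

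Bmpr1b encodes a type I receptor and lies at chr3:141837136-142169425 on the minus strand of GRCm38 (ENSMUSG00000052430). Its level was 4.36, 4.19 and 6.30 CPM in WT replicates 1, 2 and 3 and 21.3, 17.4 and 25.1 CPM in TCKO. Every TCKO library was above every WT library. The mean rose 4.32-fold, from 4.95 ± 1.17 to 21.3 ± 3.86 CPM (SD, n = 3), and the log2 fold change was 2.11 ± 0.21 SE (adjusted p = 0.000728, edgeR). Over the 17 alternatives the log2 fold change lay between 1.98 and 2.32, and the largest adjusted p was 0.0299 in edgeR, with replicates 1 and 2 of each genotype summed.

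Bmpr1a encodes the other classical BMP type I receptor and lies at chr14:34410734-34503341, minus strand (ENSMUSG00000021796). It had 155, 160 and 131 CPM in WT and 150, 139 and 111 CPM in TCKO, and the genotypes overlapped. The log2 fold change of -0.16 ± 0.13 SE did not pass the test (adjusted p = 0.444, edgeR). Per transcript length, Bmpr1a was the more abundant of the pair in both genotypes, with 65.3 ± 8.02 TPM (transcript counts divided by transcript length and scaled to the same total in each library) against 2.31 ± 0.496 for Bmpr1b in WT and 57.3 ± 8.58 against 9.76 ± 1.89 in TCKO (SD, n = 3). Bmpr1b thus made up 2.90, 2.72 and 4.88% of the summed Bmpr1a and Bmpr1b TPM in the WT libraries and 13.2, 11.7 and 19.4% in the TCKO libraries. The summed TPM of the pair overlapped between genotypes, at 71.3, 72.5 and 58.9 in WT and 75, 66.5 and 59.7 in TCKO.

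Bmpr2, the type II receptor that binds BMPs selectively, lies at chr1:59763400-59879014 on the plus strand (ENSMUSG00000067336). It had 214, 223 and 194 CPM in WT and 205, 178 and 197 CPM in TCKO, again with overlap. Its log2 fold change was -0.13 ± 0.09 SE (adjusted p = 0.366, edgeR). Both Bmpr1a and Bmpr2 also stayed short of the threshold with the replicate block (adjusted p = 0.152 and 0.338, edgeR).

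Bambi encodes a transmembrane pseudoreceptor without a kinase domain that dampens TGF-β family signalling (ENSMUSG00000024232, chr18:3507923-3516404, plus strand). Its level was 15.6, 12.8 and 20 CPM in WT and 26.9, 25.1 and 31.6 CPM in TCKO. The lowest TCKO library was above the highest WT library, as it was for Bmpr1b, and 19.4% of all tested genes were apart in this direction. The mean rose 1.74-fold, from 16.1 ± 3.64 to 27.9 ± 3.36 CPM (SD, n = 3), and the log2 fold change was 0.80 ± 0.18 SE (adjusted p = 0.0190, edgeR; 0.00310 with the replicate block). The call for Bambi was lost without WT replicate 1 (adjusted p = 0.0777), without WT replicate 2 (0.0648), without TCKO replicate 1 (0.0598) and with replicates 1 and 2 summed (0.156), all in edgeR, while its log2 fold change stayed between 0.65 and 0.98.

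Smad6 encodes an inhibitory Smad that is itself a BMP target and lies at chr9:63953076-64022059, minus strand (ENSMUSG00000036867). It had 58.8, 49.3 and 98.2 CPM in WT and 25.5, 22.3 and 70.3 CPM in TCKO. Each TCKO library was below the WT library of the same number, but TCKO replicate 3 was above WT replicates 1 and 2. The log2 fold change was -0.80 ± 0.45 SE without the block (adjusted p = 0.263, edgeR) and -0.91 ± 0.15 SE with it (adjusted p = 0.00653, edgeR; 0.0569 with the block and replicates 1 and 2 summed).

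Smad9, also called Smad8, encodes a receptor-activated Smad of the BMP branch and lies at chr3:54755582-54801257, plus strand (ENSMUSG00000027796). Its values were 9.81, 10.8 and 19.9 CPM in WT and 4.57, 3.85 and 14.1 CPM in TCKO. As with Smad6, every same-numbered TCKO library was lower, and replicate 3 was the highest of each genotype. The log2 fold change was -0.83 ± 0.50 SE without the block (adjusted p = 0.298, edgeR) and -0.94 ± 0.21 SE with it (adjusted p = 0.0205, edgeR; 0.0992 with the block and replicates 1 and 2 summed).

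The Id genes encode helix-loop-helix proteins that lack a DNA-binding region and hold bHLH factors away from DNA. Id1 (ENSMUSG00000042745, chr2:152736251-152737410, plus strand) had 55.3, 51.8 and 99 CPM in WT and 22.6, 25.7 and 100 CPM in TCKO. TCKO replicates 1 and 2 were below every WT library, whereas TCKO replicate 3 was level with WT replicate 3. The log2 fold change of -0.47 ± 0.55 SE did not pass the test (adjusted p = 0.607, edgeR; 0.0744 with the replicate block).

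Id2 (ENSMUSG00000020644, chr12:25093799-25097140, minus strand) had 56.4, 53.4 and 75.9 CPM in WT and 26.4, 29.2 and 56.3 CPM in TCKO. Only TCKO replicate 3 reached the WT range. Its log2 fold change was -0.73 ± 0.28 SE (adjusted p = 0.119, edgeR), and -0.78 ± 0.13 SE with the replicate block (adjusted p = 0.00683, edgeR; 0.0569 with the block and replicates 1 and 2 summed).

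Id3 (ENSMUSG00000007872, chr4:136143497-136145755, plus strand) had 235, 216 and 274 CPM in WT and 118, 130 and 227 CPM in TCKO. It followed the same order as Id2, with TCKO replicate 3 inside the WT range and the other TCKO libraries under it. Its log2 fold change was -0.61 ± 0.24 SE (adjusted p = 0.119, edgeR), and -0.66 ± 0.13 SE with the replicate block (adjusted p = 0.0146, edgeR; 0.114 with the block and replicates 1 and 2 summed).

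Id4 (ENSMUSG00000021379, chr13:48261228-48266026, plus strand) had 12.5, 13.8 and 17.5 CPM in WT and 8.33, 10.8 and 37.8 CPM in TCKO. TCKO replicates 1 and 2 were the lowest of the 6 libraries and TCKO replicate 3 the highest. The log2 fold change was 0.39 ± 0.52 SE (adjusted p = 0.654, edgeR), and without TCKO replicate 3 it was -0.60 (adjusted p = 0.0730, edgeR).

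The genotype difference was next read within each replicate number, as TCKO minus WT in log2(CPM + 2), a scale that understates changes of low genes. For Smad6 it was -1.15, -1.08 and -0.47 in replicates 1, 2 and 3, and for Smad9 -0.85, -1.13 and -0.44. Id2 gave -1.04, -0.83 and -0.42, and Id3 gave -0.98, -0.72 and -0.26. In these 4 genes the difference was negative in all 3 numbers and smallest in replicate 3. Including Bmpr1a (-0.05, -0.19 and -0.23), 5 of 10 members were lower in all 3 numbers, and 28.5% of all tested genes were. Bmpr1b (1.88, 1.65 and 1.71) and Bambi (0.72, 0.88 and 0.61) were higher in all 3, and 29.0% of all tested genes were. No member had every TCKO library below every WT library, and 18.9% of all tested genes did.

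Replicate 3 stood high for most members in both genotypes. Against the mean of replicates 1 and 2, its CPM was 1.82 times as high in WT and 2.95 times in TCKO for Smad6, and 1.93 and 3.36 times for Smad9. The ratios were 1.85 and 4.14 for Id1, 1.38 and 2.03 for Id2, 1.21 and 1.83 for Id3, and 1.33 and 3.95 for Id4. For these 6 genes the ratio was larger in TCKO than in WT, which is a description of 1 library per genotype. Bmpr1b (1.47 and 1.30) and Bambi (1.41 and 1.22) were also higher in replicate 3 of both genotypes, while Bmpr1a (0.830 and 0.770) was lower in both and Bmpr2 (0.888 and 1.03) was lower in WT and near level in TCKO. In all, 8 of 10 members were higher in WT replicate 3 and 9 of 10 in TCKO replicate 3. The median log2 difference of the members from replicates 1 and 2 was 0.43 in WT and 0.92 in TCKO. Over all tested genes this signed median was 0.0 in each genotype. Over all tested genes the median absolute log2 difference between replicate 3 and the mean of the others was 0.17 in each genotype. Without TCKO replicate 3, edgeR called 5 members lower: Smad6 (log2 fold change -1.52, adjusted p = 0.0106), Smad9 (-1.66, 0.0163), Id1 (-1.50, 0.0111), Id2 (-1.15, 0.00316) and Id3 (-0.96, 0.00127). In that fit 10.1% of all tested genes were called lower, and its TCKO group holds the closely similar replicates 1 and 2. Leaving out any other single library called 0 members lower. The mitochondrial share was also higher in replicate 3 of both genotypes, whereas the sex-linked transcripts differed in TCKO replicate 3 alone, and WT replicate 3 was like the other libraries in these; the part of either in the result was not tested.

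**Figure D2:**
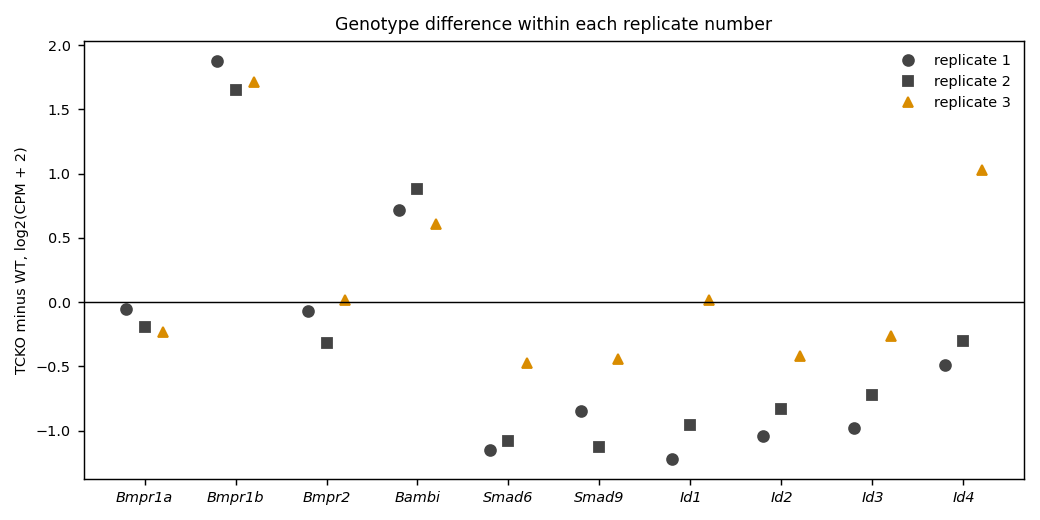
TCKO minus WT in log2(CPM + 2) (y axis) for each gene (x axis), where each symbol is the difference between the 2 libraries of 1 replicate number. Smad6, Smad9 and the Id genes lie higher in replicate 3 (orange) than in replicates 1 and 2, and Id4 goes from -0.49 and -0.30 to 1.03.

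Per transcript length, Id3 was the most abundant member in WT (375 ± 38.9 TPM), followed by Id1 (164 ± 59.2 TPM). Id2 (70.5 ± 12.4 TPM), Bmpr1a and Smad6 (59.5 ± 21.1 TPM) came next and their libraries overlapped. Bmpr2 (32.7 ± 2.87 TPM) was separate from its neighbours on either side, while Id4 (10.5 ± 1.64 TPM), Bambi (8.83 ± 1.83 TPM) and Smad9 (6.96 ± 2.71 TPM) overlapped and Bmpr1b was the lowest (SD, n = 3 for each). In TCKO the upper 6 places, from Id3 (242 ± 93.1 TPM) to Bmpr2 (29.3 ± 2.58 TPM), each overlapped with the next among them, Bmpr2 was separate from Bambi below it, and Smad9 was the lowest at 3.84 ± 2.95 TPM (SD, n = 3). Bambi stood at 15.0 ± 1.97 TPM, Id4 at 13.5 ± 11.7 TPM and Bmpr1b at 9.76 ± 1.89 TPM, each overlapping the next.

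The summed TPM of the 4 Id genes was 580, 535 and 745 in WT and 271, 294 and 677 in TCKO. Id3 made up 63.9, 63.2 and 55.8% of this sum in WT and 66.9, 66.3 and 51.6% in TCKO. Id1 made up 23.3, 23.4 and 31.2% in WT and 19.9, 20.2 and 35.1% in TCKO. The Id3 and Id1 shares therefore followed the replicate number in both genotypes, with less Id3 and more Id1 in replicate 3. The smaller shares of Id4 and Id2 were instead apart by genotype. Id4 made up 1.58, 1.88 and 1.66% in WT and 2.21, 2.56 and 3.99% in TCKO. The Id2 share was lower in every TCKO library than in any WT library (mean 11.4% in WT and 10.4% in TCKO). Differences in these shares were not tested.

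**Figure D3:**
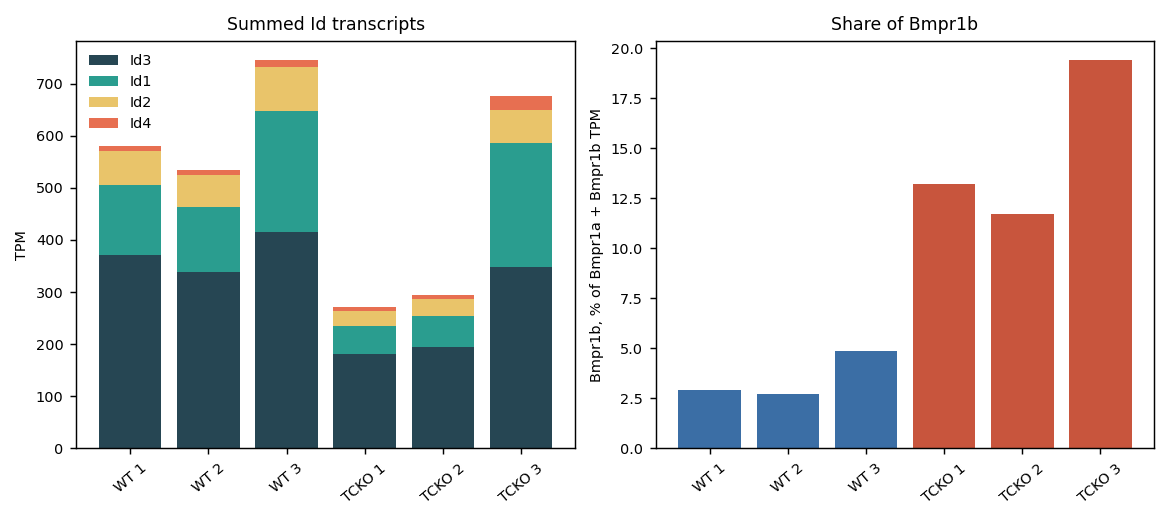
Left, TPM of the 4 Id genes stacked by library; right, Bmpr1b as a percentage of Bmpr1a plus Bmpr1b TPM, 1 bar per library and both axes from 0. The Id sums of TCKO replicates 1 and 2 (271 and 294 TPM) are the lowest, and the Bmpr1b share is 11.7 to 19.4% in TCKO against 2.72 to 4.88% in WT.

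TET proteins act on CG dinucleotides, and 3 promoters are printed to show how these members differ in them: that of Bmpr1b, called higher, and those of Smad6 and Smad9, lower in each replicate number. Of the 10 members, 8 had an entry among the RefSeq promoters of GRCm38.p6; Id1 and Bambi did not. Below are the 250 bases before the RefSeq start, 5′ to 3′ on the strand of the gene, with each CG in capitals. They are chr3:141982265-141982514 for the first of 3 Bmpr1b starts (minus strand, within the Bmpr1b gene), chr9:64022060-64022309 for Smad6 (minus strand) and chr3:54755332-54755581 for Smad9 (plus strand), and no annotated exon falls in them.
Bmpr1b: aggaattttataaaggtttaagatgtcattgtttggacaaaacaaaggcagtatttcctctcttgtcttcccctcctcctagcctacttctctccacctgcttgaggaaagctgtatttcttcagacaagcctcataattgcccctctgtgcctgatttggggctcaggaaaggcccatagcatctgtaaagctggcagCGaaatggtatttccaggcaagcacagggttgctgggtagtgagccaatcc
Smad6: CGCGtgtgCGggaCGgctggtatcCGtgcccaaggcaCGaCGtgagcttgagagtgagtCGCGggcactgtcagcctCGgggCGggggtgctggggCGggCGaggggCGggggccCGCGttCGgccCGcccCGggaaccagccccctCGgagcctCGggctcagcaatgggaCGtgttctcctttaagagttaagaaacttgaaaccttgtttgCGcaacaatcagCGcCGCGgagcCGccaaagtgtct
Smad9: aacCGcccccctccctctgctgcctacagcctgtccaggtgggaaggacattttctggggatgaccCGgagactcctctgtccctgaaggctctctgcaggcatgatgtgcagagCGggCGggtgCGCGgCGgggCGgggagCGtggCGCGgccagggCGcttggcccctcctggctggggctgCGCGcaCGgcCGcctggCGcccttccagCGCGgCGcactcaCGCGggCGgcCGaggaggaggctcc

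The Bmpr1b window held 1 CG, and the windows before its other 2 starts held 5 each. All 3 of these starts lie inside the gene, whose 5′ end on the minus strand is at chr3:142169425. The sequence at that end, and which start these cells use, were not examined. Smad6 held 27 and Smad9 held 24, where the median of the 32851 RefSeq windows was 6. Bmpr1a (36), Id4 (35), Bmpr2 (22), Id2 (18) and Id3 (18) were also above that median. These CG-rich windows belonged both to members called lower with the replicate block (Smad6, Smad9, Id2 and Id3) and to members not called (Bmpr1a, Bmpr2 and Id4). DNA methylation was not analysed here.

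Motifs bound by Smad proteins were searched on both strands of the same 250 bases. GGCGCC was found once each in Smad9, Id2, Id4, Bmpr1a and Bmpr2, and in 9.59% of all windows. GGAGCC, or GGCTCC on the other strand, was found in Smad6 (2 matches), Smad9, Id2, Id3, Id4 and the other 2 Bmpr1b starts, and in 26.0% of all windows. The palindrome GTCTAGAC was in none of the members' 250 bases and in 0.167% of all windows; in Smad6 a match begins 4 bases before the start and runs across it. These matches describe letters and not bound sites.

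The libraries differed between genotypes in the markers of other cells that a calvarial culture may hold. All 5 tested chondrocyte markers were lower in TCKO (summed level 6170 to 8040 CPM in WT and 679 to 956 CPM in TCKO). Among osteoblast markers 4 of 8 tested were lower (39100 to 42700 against 19000 to 27800 CPM). Of the macrophage and osteoclast markers 2 of 5 were lower (63.5 to 86.6 against 24.7 to 45.0 CPM). For pericytes and smooth muscle it was 1 of 4 (159 to 279 against 97.1 to 138 CPM). Cspg4 took most of this last list, with 1195 to 2193 counts per WT library against 593 to 1074 per TCKO library. Rgs5 (42 to 82 against 34 to 56 counts) overlapped between genotypes. So did Myh11 (24 to 105 against 73 to 110) and Des (21 to 43 against 41 to 47). The skeletal muscle list was at 4.39 to 14.8 CPM in WT and 29.5 to 72.8 CPM in TCKO. Its 1 tested gene, Acta1, was higher, with 34 to 92 counts per WT library against 263 to 585 per TCKO library. Myod1 (2 to 10 against 0 to 5 counts) and Myog (2 to 20 against 0 to 10) overlapped between genotypes. Myf5 had 0 counts throughout. The endothelial list was at 2.20 to 3.27 CPM in WT and 34.2 to 95.1 CPM in TCKO through Kdr, a VEGF receptor, at 3, 4 and 13 counts in the WT libraries and 293, 266 and 837 counts in the TCKO ones. The defining endothelial genes Pecam1, Cdh5, Tek, Cldn5 and Emcn were at or near 0, with at most 8 counts in any library. The part of these cells in the values of Bmpr1b, Bambi and the response genes was not tested, and in bulk samples fewer cells of a type cannot be told apart from less RNA per cell.

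The rest of the BMP pathway was read from a list of 48 genes, of which 44 were tested. In TCKO 5 of them were higher and 10 lower (7 and 14 with the replicate block), with a median log2 fold change of -0.27. Of all tested genes, 9.07% were called higher and 8.63% lower (12.0 and 11.5% with the block). The counts by group below stand beside these same shares. None of the 4 other type I and type II receptors passed the test, and Acvr1, which encodes a type I receptor, stood at 70.8 ± 4.18 against 60.9 ± 1.30 CPM (WT against TCKO, SD, n = 3; adjusted p = 0.0837, edgeR). Among the co-receptors 1 of 4 tested was lower, Eng, which encodes endoglin (235 ± 5.47 CPM against 86.5 ± 15.6 CPM, SD, n = 3; log2 fold change -1.44 ± 0.12 SE, adjusted p = 0.000398, edgeR).

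Among 10 other Smads and their regulators, 3 were lower and 1 higher, and none of the called genes was a Smad. Smurf2, a ubiquitin ligase that acts on receptors and Smads, fell from 191 ± 5.39 to 97.0 ± 3.37 CPM (SD, n = 3; log2 fold change -0.98 ± 0.07 SE, adjusted p = 0.000142, edgeR). Tob1 (-0.57) and Ski (-0.52), both repressors of Smad activity, were lower, and Skil (0.52), a relative of Ski, was higher. Of 5 tested response transcription factors, the homeobox gene Msx2 was higher (0.50 ± 0.10 SE, adjusted p = 0.0135, edgeR), and the median log2 fold change of the group was -0.33. The bHLH gene Atoh8 had 94.1 ± 27.8 CPM in WT and 35.3 ± 24.1 CPM in TCKO, with every TCKO library below every WT library (SD, n = 3; log2 fold change -1.41 ± 0.42 SE, adjusted p = 0.0569, edgeR), and it was called lower with the replicate block (0.00181) and with the block on summed replicates (0.0238). Of the bHLH partners of the Id proteins and the Twist factors, Tcf3 was higher (0.34) and Tcf4 lower (-0.54). In edgeR the smaller of these calls were lost when single libraries were left out. Without WT replicate 2 the adjusted p was 0.0505 for Skil, 0.0608 for Ski, 0.0648 for Msx2, 0.0847 for Tcf3 and 0.122 for Tcf4. Their log2 fold changes in that fit were 0.47, -0.49, 0.49, 0.32 and -0.52, in the same order. Of all tested genes, that fit called 603 higher and 550 lower, against 1254 and 1193 with all libraries. Ski also lost its call without WT replicate 1 (0.0547) or TCKO replicate 1 (0.0519), Tcf3 without TCKO replicate 2 (0.0733), and Tcf4 without WT replicate 1 (0.131) or TCKO replicate 2 (0.112).

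Of 8 tested ligands 3 were lower and none higher, with a median log2 fold change of -1.08. Bmp4 fell from 117 ± 43.6 to 29.0 ± 7.00 CPM (SD, n = 3; log2 fold change -2.01 ± 0.31 SE, adjusted p = 0.00448, edgeR). Gdf6 (-1.81 ± 0.26 SE, adjusted p = 0.00318, edgeR) and Bmp5 (-1.52 ± 0.39 SE, adjusted p = 0.0331, edgeR) were the others. Bmp5 shares 46.7% of its exon length with the opposite-strand gene Gm26903, which had 0 counts in all libraries together. The call for Bmp5 was lost without WT replicate 1 (adjusted p = 0.122), WT replicate 2 (0.0909), TCKO replicate 1 (0.0973) or TCKO replicate 3 (0.0545), in edgeR.

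Of 8 tested extracellular antagonists 2 were higher and 2 lower. Grem1, which encodes gremlin 1, rose from 31.3 ± 11.2 to 477 ± 72.4 CPM (SD, n = 3), or 15.2-fold (log2 fold change 3.93 ± 0.25 SE, adjusted p = 0.000124, edgeR). Bmper, a secreted BMP-binding protein, was also higher (0.91 ± 0.09 SE, adjusted p = 0.000602, edgeR). Sostdc1 was counted 29, 37 and 10 times in the WT libraries and 1, 0 and 0 times in the TCKO ones, at least 8.0-fold lower when TCKO is set to the floor of 3 counts per library (adjusted p = 0.00433, edgeR). Fst, follistatin, was also lower (-0.98 ± 0.25 SE, adjusted p = 0.0321, edgeR), and its call was lost in edgeR without WT replicate 1 (adjusted p = 0.0994), WT replicate 2 (0.112), TCKO replicate 1 (0.0915) or TCKO replicate 2 (0.111). With replicates 1 and 2 summed, Eng, Smurf2, Grem1 and Bmper passed the threshold, and the calls for Tob1, Ski, Skil, Msx2, Tcf3, Tcf4, Bmp4, Gdf6, Bmp5, Sostdc1 and Fst were lost.

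Besides Atoh8, the replicate block added calls for 5 of these pathway genes, named for that reason. In edgeR, Neo1 (adjusted p = 0.0733 without and 0.0410 with the block), Bmp8a (0.0549 and 0.0230) and Nog (0.0679 and 0.0121) were called lower with it, and Rgmb (0.126 and 0.0172) and Twist1 (0.171 and 0.0307) higher. With replicates 1 and 2 summed the blocked adjusted p lay between 0.0745 and 0.245 for these 5 genes.

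**Figure D4:**
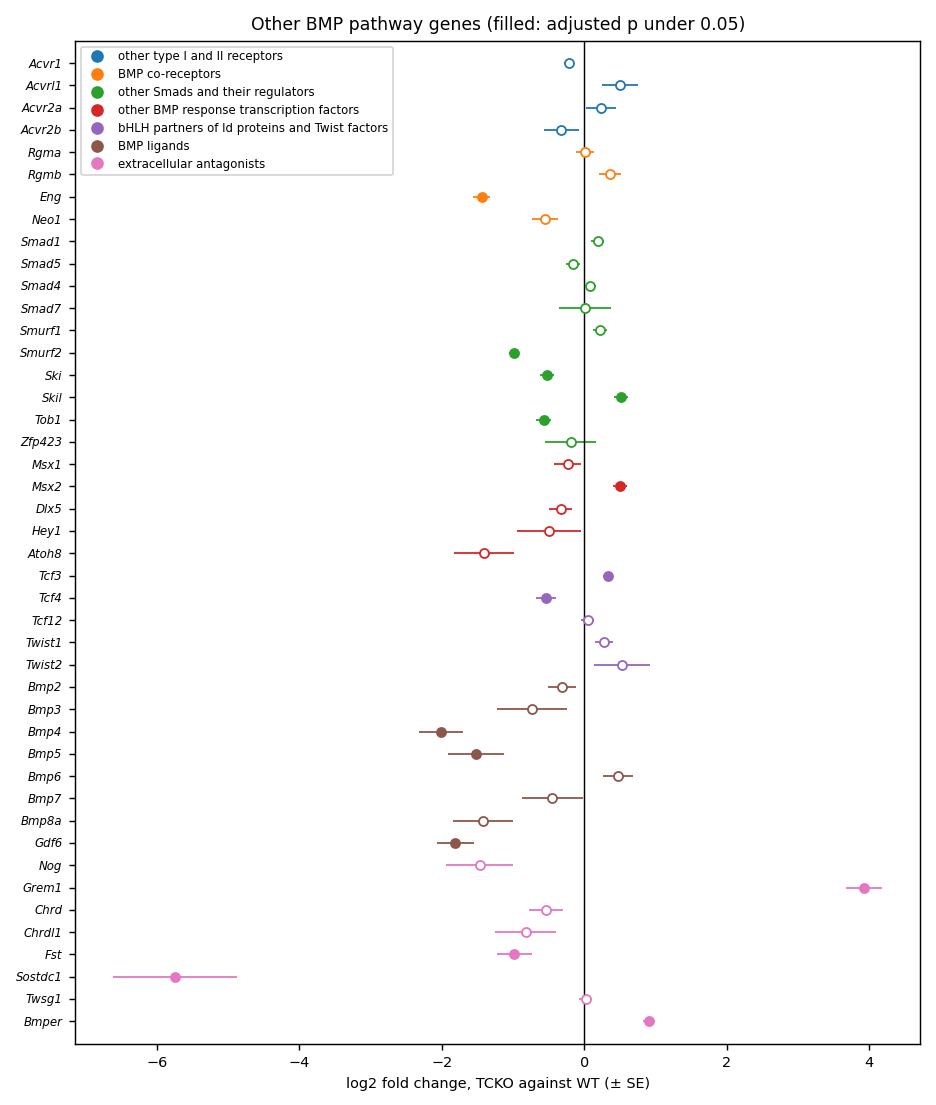
Log2 fold change of TCKO against WT (x axis, ± SE) for the 44 tested genes of the other BMP pathway list, coloured by role, with filled points for adjusted p under 0.05 in edgeR. Grem1 (3.93) and Sostdc1 (-5.74, a fitted value with 1 count in all TCKO libraries together) lie farthest from 0, and the called ligands are all to the left of it.

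For each called member, the 2 genes with the most similar profile over the 6 libraries were taken, measured as the root mean square difference of centred log2 CPM. They were Kcnh2 (0.122) and Hmga2 (0.143) for Bmpr1b, and Mthfd2l (0.0438) and H2afx (0.0594) for Bambi.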

How the data were processed

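Poly(A) RNA of 6 libraries was sequenced with a directional kit. Per the submitters' processing notes, tools included STAR 2.7.0e and featureCounts 2.0.0 with GRCm38; Ensembl release 99 was the annotation. The counts deposited by the authors are raw read counts per gene. The strand and multi-mapping settings were not given in the sources used here, a limit on low counts such as those of Bglap. The members and all gene lists were chosen with earlier results of these data known. Genes passing filterByExpr (13826) were tested with edgeR 4.0.16 (R 4.3.3) quasi-likelihood on TMM-scaled counts, WT against TCKO, without covariates, and Benjamini-Hochberg adjustment; a call is adjusted p under 0.05. DESeq2 1.42.0, other scalings and filters, a replicate block and left-out libraries were alternatives. TPM used GRCm38 exon lengths. The test was first checked on simulated independent libraries with the same dispersion for all genes. That simulation did not copy the closeness of replicates 1 and 2, so it does not bear on this limit. Same-numbered libraries deviated together from their group means (correlations 0.204, 0.214 and 0.347). Because replicates 1 and 2 were close to each other, all of these values partly reflect how replicate 3 differed from them. Correlations between differently numbered libraries were not computed, so the values cannot show that replicates 1 and 2 pair by number. The block was kept as an alternative, and blocked values are given where they change a call. The labels do not say that replicates were separate animals or cultures, so p-values measure the spread between these samples, which may be technical. With 3 against 3 libraries depth limits low genes most. Genes overlapping Bmpr1a or Id4 on the opposite strand had at most 9 counts in all libraries together. At most 4 genes of each pathway group were named by adjusted p, or the gene with the highest level where none passed. Genes called only with the replicate block were named in addition. A gene of the pathway list is not reported here and was left out of the list's counts.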

Additional observations from a re-analysis of the deposited data

Results flagged for a closer look

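The genotype difference in replicate 3 went the other way from that in replicates 1 and 2 for 3 members, on the log2(CPM + 2) scale. For Id4 it was 1.03 in replicate 3 and averaged -0.39 in replicates 1 and 2. For Id1 it was 0.02 against -1.09, and for Bmpr2 0.02 against -0.20. The difference between replicate numbers was not tested, since each number holds 1 library per genotype, and the values of 0.02 are close to 0.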

How the results depend on the processing

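Members called higher numbered 2, 1 with replicates 1 and 2 summed, and 1 to 2 when 1 library was left out. Members called lower numbered 0, 2 with all genes of at least 1 count, 2 with DESeq2, 4 with the replicate block, 0 with the block and replicates 1 and 2 summed, 5 with a batch term for replicate 3, 8 with replicates 1 and 2 only, and 0 to 5 when 1 library was left out. The block changed no other call among the members. The fit on replicates 1 and 2 only rests on near-copies and its calls carry that limit. Id4 reversed to -0.47 with replicates 1 and 2 only, and ranged from -0.60 to 0.75 when 1 library was left out. Other BMP pathway genes called higher (5) and lower (10) were 2 and 2 with replicates 1 and 2 summed, 2 higher with the sum and the replicate block, 16 lower with the batch term, 8 and 20 with replicates 1 and 2 only, and 2 to 6 and 6 to 14 when 1 library was left out. All tested genes called higher (1254) and lower (1193) were 217 and 169 with replicates summed, 584 and 566 with the sum and the block, 2190 and 2082 with the batch term, 3121 and 3116 with replicates 1 and 2 only, and 603 to 1613 and 550 to 1509 when 1 library was left out. Among 170 member values over 17 alternatives, 139 kept direction and side of the threshold, 25 gained a call in the same direction, 4 lost one and 2 reversed, of which Id4 with replicates 1 and 2 only was called lower (adjusted p = 0.0123, edgeR). The causes were not tested.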
